A study of Homo sapiens with 4 samples.

Results

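Of the 16371 genes in the deposited table of A549 cell clusters, 685 carried a pseudogene biotype. The 629 described here are those whose name does not start with RPL or RPS, the symbols of ribosomal protein genes. That rule uses the annotation and the name and no measured value, and 56 pseudogenes named as ribosomal protein copies were left aside. The 629 genes had 1134 listed transcripts, summed per gene, and 430 of them had a single one. By the annotation, 272 were transcribed unprocessed, 185 processed, 67 transcribed processed, 62 unprocessed and 35 transcribed unitary pseudogenes, and 8 had another pseudogene biotype. A549 is a human lung adenocarcinoma line. The cells carried either a control construct (shMock, genotype labelled wild type) or a short hairpin RNA against DUSP23, a dual-specificity phosphatase gene (shDUSP23, labelled as a DUSP23 knockdown). Each group had 2 mRNA libraries, called 1 and 2 here, made from total RNA of the clusters. Every sample title also carries the label SUS, whose meaning the labels do not give. The labels do not say whether replicates were separate cultures, whether the lines were clones or how many hairpins were used, so every p-value measures only the spread between these libraries.

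A pseudogene is a stretch of genome derived from a gene and no longer annotated as coding for its protein. Processed pseudogenes arise when a spliced messenger RNA is copied back into DNA and inserted elsewhere, so they lack introns and usually the promoter of the gene they came from, here called the parent. Unprocessed pseudogenes arise by duplication of the gene and keep its exon structure. Unitary pseudogenes are former single genes with no working copy in the genome. The word transcribed in a class name means that the annotators saw evidence of a transcript. Nuclear copies of mitochondrial DNA are annotated as unprocessed pseudogenes too.

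Many copies are so close to their parent that a short read can hardly tell them apart, and 5 pairs show the range met below. Each pair is shown over 80 aligned bases of the coding sequence of the expressed gene, 5′ to 3′, from GENCODE release 29 transcripts in GRCh38 coordinates. Capitals mark the bases that differ. MTATP6P1 (chr1:633696-633775, + strand) was the most abundant pseudogene of the set. It differs here at 1 base from the mitochondrial gene MT-ATP6 (chrM:8527-8606, + strand).
MTATP6P1: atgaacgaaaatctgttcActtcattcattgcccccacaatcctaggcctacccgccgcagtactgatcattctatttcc
MT-ATP6: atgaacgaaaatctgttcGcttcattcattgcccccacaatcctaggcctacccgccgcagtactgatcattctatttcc
AC243919.1 (chr15:82372763-82372842, - strand) carries a clone name. It does not differ here from RPL9 (chr4:39458230-39458309, - strand), a ribosomal protein gene.
AC243919.1: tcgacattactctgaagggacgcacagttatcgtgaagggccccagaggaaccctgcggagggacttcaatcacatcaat
RPL9: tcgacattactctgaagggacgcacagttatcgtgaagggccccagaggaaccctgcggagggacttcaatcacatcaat
HMGB1P6 (chr15:71165188-71165267, - strand) is a processed copy. It has 6 differences here from HMGB1 (chr13:30463273-30463352, - strand), which encodes a DNA-bending chromatin protein.
HMGB1P6: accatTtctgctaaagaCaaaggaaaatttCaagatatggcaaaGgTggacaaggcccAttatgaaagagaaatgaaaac
HMGB1: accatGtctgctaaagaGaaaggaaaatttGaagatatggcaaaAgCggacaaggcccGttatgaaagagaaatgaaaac
MST1P2 (chr1:16646426-16646505, + strand) is a duplicated copy. It has 1 difference here from MST1 (chr3:49687760-49687839, - strand), which encodes macrophage stimulating protein.
MST1P2: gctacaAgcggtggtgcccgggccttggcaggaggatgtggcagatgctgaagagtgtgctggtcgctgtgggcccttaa
MST1: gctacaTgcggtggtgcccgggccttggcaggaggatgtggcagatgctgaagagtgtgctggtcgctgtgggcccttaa
AADACP1 (chr3:151770474-151770553, + strand) is a more distant duplicate. It differs at 20 bases from the neighbouring AADAC (chr3:151814163-151814242, + strand), an arylacetamide deacetylase gene.
AADACP1: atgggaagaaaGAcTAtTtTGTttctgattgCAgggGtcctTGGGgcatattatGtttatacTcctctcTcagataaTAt
AADAC: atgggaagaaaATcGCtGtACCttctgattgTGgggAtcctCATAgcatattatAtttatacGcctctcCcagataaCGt
Over the whole alignment the identity was 98.5% for MTATP6P1, 99.8% for AC243919.1, 98.1% for HMGB1P6, 97.7% for MST1P2 and 79.1% for AADACP1. A sequence was found in that release for 616 members. Of these, 45 had no 50-base word that was absent from every other annotated gene, and in 58 every word was of that kind. Among tested members the median share of such words was 51.0%. How reads that fit several places were counted was not stated, so for near-identical copies it is uncertain which copy the fragments came from.

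The values were FPKM, fragments scaled by transcript length and by library size. Low values lay on whole-fragment steps, which gave totals of 21274700 and 25243700 fragments in shMock 1 and 2 and of 26997400 and 42236500 in shDUSP23 1 and 2. The FPKM of all listed genes summed to 540163 and 578361 in shMock but to 438604 and 446982 in shDUSP23. A rescaling to equal sums is therefore given for all members, for the transcribed unprocessed and processed classes and for some lists. Other splits are given as deposited and may move with it. Below, 4 values after a name are FPKM in shMock 1, shMock 2, shDUSP23 1 and shDUSP23 2, and a log2 fold change is shDUSP23 minus shMock with its standard error after ±. A bare value beside a left-out library or another setting is the adjusted p there. DUSP23 was at 29.96, 35.9, 1.71 and 2.71 (log2 fold change -3.64 ± 0.22, adjusted p = 3.12e-05), so it fell in the libraries labelled as its knockdown. The epithelial markers KRT8, KRT18, KRT7, EPCAM and CDH1 were present in all libraries, and 4 of the 5 were lower in shDUSP23. CDH1 was at 22.4, 21.5, 6.198 and 8.14 (log2 fold change -1.56, adjusted p = 0.000288), and the log2 fold changes of EPCAM, KRT18 and KRT7 were -0.71, -0.44 and -0.33 (adjusted p = 0.0254, 0.0162 and 0.0444). Their part in the results below was not tested. NAPSA, from the same list of lung epithelial markers, was at 1.957, 2.14, 3.22 and 2.42 and was not called (log2 fold change 0.37, adjusted p = 0.286). NKX2-1, SFTPB, SFTPC, PTPRC, CD3E, PECAM1, VWF, CDH5, DCN, HBB and HBA1 had no row in the table. CD14 was at 4.68, 8.005, 0.983 and 0.995 FPKM. Of the fibroblast markers, COL1A1 was at 2.93, 2.48, 3.91 and 4.66 (log2 fold change 0.58, adjusted p = 0.0758). PDGFRB was at 0.0247, 0.0278, 0.273 and 0.0831 and was not tested.

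Pseudogenes were weakly expressed, with a median level over all 629 of 1.79 FPKM, and 417 of them averaged 1 FPKM or more and were tested. In the fit over 13691 genes (limma on log2(FPKM + 0.5), Benjamini-Hochberg adjusted p under 0.05), 77 of the 417 rose and 63 fell in shDUSP23. That is 33.6%, where 45.3% of all genes tested were called, 23.1% higher and 22.2% lower. Split by level, 28.3% of members of 1 to 5 FPKM were called beside 31.9% of all genes of that level, and 41.6% of members of at least 5 FPKM beside 50.5%. The groups did not overlap in 251 members, 138 higher and 113 lower in shDUSP23, where 75.5% of all genes did not overlap. The members' median log2 fold change was 0.03, as was that of all genes. Rescaling every library to the same sum moved the median of all genes from 0.03 to 0.34 and the members' calls to 121 higher and 42 lower. The share of calls that were higher then went from 55.0% to 74.2% in members and from 51.0% to 75.7% in all genes. Without shMock 1 the members' calls numbered 44 higher and 33 lower, and without shMock 2 they numbered 38 and 21. Counting was thin in places. The median tested member had 95 and 122 fragments in shMock and 138 and 211 in shDUSP23. Of the tested members 23, 11 of them called, were listed at 0 in at least 1 library. Values at 0 were most frequent in shDUSP23 2, the library with the most fragments. There 9 tested members were at 0, beside 7 in shDUSP23 1 and 5 and 4 in shMock. Over all listed transcripts 2930 and 4334 were at 0 in shMock and 4814 and 9946 in shDUSP23. The cause was not tested.

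Counts by direction varied between the classes. Among transcribed unprocessed pseudogenes 45 rose and 17 fell of 203 tested (median log2 fold change 0.09). That is 22.2% higher and 8.37% lower, where 23.1% of all genes rose and 22.2% fell, so the share that rose was near that of all genes and the share that fell was below it. Unprocessed ones had 12 higher and 6 lower of 43 (median 0.21). Processed pseudogenes leaned the other way, with 9 higher and 28 lower of 110 (median -0.29), or 8.18% and 25.5%. Transcribed processed ones split 8 to 9 of 37 (median -0.02). In the unitary class 2 rose and 3 fell of 21 (median 0.18), and of 3 tested members of other biotypes 1 rose. The difference between classes was not tested, since members are not replicates. With equal sums the processed class had 16 higher and 22 lower and a median of 0.00, beside the all-gene median of 0.34. The transcribed unprocessed class then had 70 higher and 7 lower and a median of 0.38. After correction for GC content and length the processed class had 12 higher and 20 lower and a median of -0.064. Single libraries moved these counts. Processed calls were 4 higher and 14 lower without shMock 1, 4 and 7 without shMock 2, and 16 and 35 without shDUSP23 1. Transcribed unprocessed calls were 29 and 7, 21 and 7, and 51 and 30 in the same runs.

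**Figure D1:**
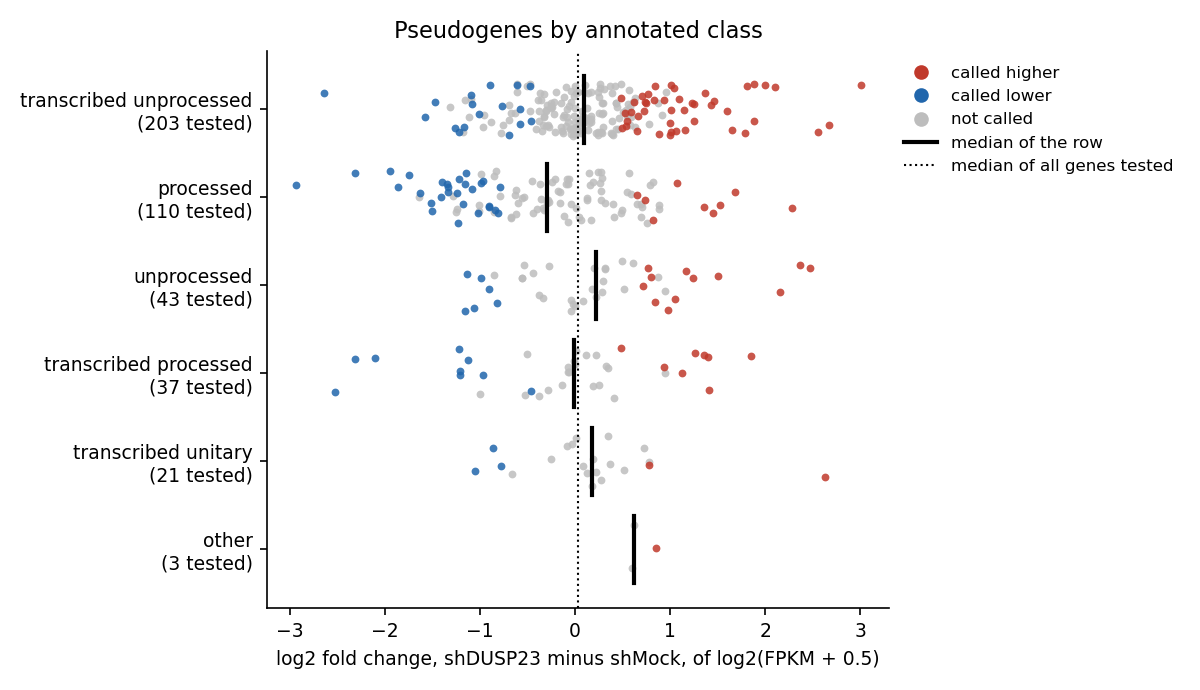
Each point is 1 tested pseudogene, placed by its log2 fold change (shDUSP23 minus shMock of log2(FPKM + 0.5), x axis) in the row of its annotated class; colours give the limma call, thick bars the class median and the dotted line the median of all genes tested. The bar of the processed class, at -0.29, lies left of the dotted line at 0.03, and the transcribed unprocessed class holds 45 points called higher and 17 called lower of 203.

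Summed levels were set by a few members. The unprocessed class summed to 1054 and 1162 FPKM in shMock and 646 and 606 in shDUSP23. Without MTATP6P1 and MTND2P28, nuclear copies of mitochondrial genes, it summed to 157 and 176 and then to 197 and 200 FPKM, so its direction depended on them. The transcribed processed class went from 737 and 795 to 469 and 464 FPKM, and without AC243919.1 from 317 and 326 to 283 and 270. Processed pseudogenes summed to 736 and 808 FPKM in shMock and to 598 in both shDUSP23 libraries. Transcribed unprocessed pseudogenes summed to 1533 and 1563 FPKM and then to 1728 and 1745. In each of these 4 classes the groups did not overlap. As a share of each library's summed FPKM, the processed class was at 0.1363, 0.1397, 0.1364 and 0.1337%, and its groups overlapped. By the same share the transcribed processed class without AC243919.1 was higher in shDUSP23, at 0.0588, 0.0564, 0.0646 and 0.0605%, so its direction depended on the scaling. With 2 libraries against 2 the exact two-sided permutation test cannot give less than p = 0.333.

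The nuclear copies of mitochondrial genes fell. MTATP6P1 (ENSG00000248527) was at 794, 863, 393 and 350.1 (log2 fold change -1.16 ± 0.12, adjusted p = 0.000227). MTND2P28 was at 103, 123, 55.99 and 56.4 (log2 fold change -0.995 ± 0.13, adjusted p = 0.000508). MTCO1P12, which lies between them on chromosome 1, was at 37.7, 37.9, 19.4 and 14.7 (log2 fold change -1.14 ± 0.16, adjusted p = 0.00081). In all 3 the lowest shMock library lay above the highest shDUSP23 library, and each was called with any 1 library left out. The size of the fall depended on scaling: with equal sums MTND2P28 fell by 0.66, and by quantile normalization MTATP6P1 fell by 0.37 (log2). Their mitochondrial namesakes fell as well. MT-ATP6, a subunit gene of ATP synthase, was at 5480.5, 5934, 2738 and 2724. MT-ND2, of complex I, was at 4337, 4434, 2224 and 2124. MT-CO1, of complex IV, was at 10984, 11179, 6138 and 6310.1. On the values as deposited, the difference between copy and namesake did not pass the test. It was -0.095 ± 0.10 (adjusted p = 0.628) for MTATP6P1, 0.017 ± 0.16 (adjusted p = 0.959) for MTND2P28 and -0.303 ± 0.23 (adjusted p = 0.501) for MTCO1P12. By quantile normalization the difference of MTCO1P12 was -1.01 (limma adjusted p = 0.0318).

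Among the 10 most abundant members, 3 fell, 1 rose and 6 were not called, where 22.2% of all genes tested fell and 23.1% rose. AC243919.1, which follows MTATP6P1 in level, was at 419, 469, 185 and 194 (log2 fold change -1.22 ± 0.12, adjusted p = 0.000148). Of its 50-base words 11.9% were its own, and RPL9, its closest coding gene, had a log2 fold change of -1.26. AP000769.1 (chr11:65455258-65466720, + strand), listed as FAUP4 in newer tables, was the 1 that rose, at 35.6, 30.7, 71.9 and 87.3 (log2 fold change 1.25 ± 0.14, adjusted p = 0.00031). The other six were not called. AHSA2P was at 67.5, 66.3, 62.4 and 72.2, and NMRAL2P at 53.8, 49.9, 46.6 and 54.3. DUXAP10, a copy of the DUXA homeobox gene, was at 44.6, 50.6, 49.2 and 44.9. The groups overlapped in these 3. TRIM16L was at 67.5, 65.7, 58.6 and 53.5 (log2 fold change -0.25 ± 0.12, adjusted p = 0.114). HERC2P2, a partial duplicate of a giant ubiquitin ligase gene, was at 53.97, 56.4, 44.04 and 44.8 (log2 fold change -0.31 ± 0.12, adjusted p = 0.0579). In both the groups did not overlap but the adjusted p was above the threshold. ITGB1P1, inside ADGRE3 and identical to the integrin gene ITGB1 over its whole length, was at 68.5, 79.6, 40.9 and 70.6 (log2 fold change -0.45 ± 0.23, adjusted p = 0.133). Its value in shDUSP23 2 lies among the control values, and without that library its adjusted p was 0.00191.

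In the lists of copies of genes for chromatin, RNA and translation factors, the calls had 1 direction. Each parent list used here took its members by the start of their listed symbol alone, and newer symbols were not used. In the list of chromatin and nucleic acid binding parents, 17 members in all, 6 of 12 tested fell and 0 rose (median log2 fold change -1.03), where 22.2% of all genes tested fell and 23.1% rose. At an unadjusted p under 0.05, 7 were lower and 0 higher. Of the 7 parents with a tested pair, 6 fell and 1 rose. HMGB1P6 was at 55.7, 52.8, 28.8 and 28.7 (log2 fold change -0.903 ± 0.12, adjusted p = 0.000634). HMGB1P5 was at 9.66, 19.6, 1.33 and 3.98 (log2 fold change -2.32 ± 0.44, adjusted p = 0.00331). NPM1P27, a copy of the nucleophosmin gene, was at 5.83, 7.35, 2.77 and 2.57 (log2 fold change -1.16 ± 0.22, adjusted p = 0.0037). Over the 12 tested members of this list, the groups did not overlap in 10, 7 lower and 3 higher in shDUSP23. Among all genes tested, 75.5% did not overlap. SNRPEP4 and SNRPGP10 are copies of spliceosomal Sm protein genes. The first was at 5.56, 10.5, 3.05 and 1.44 (log2 fold change -1.64 ± 0.36, adjusted p = 0.00715) and the second at 12.5, 15.3, 9.55 and 3.16 (log2 fold change -1.24 ± 0.40, adjusted p = 0.0327). HNRNPA1P7, a copy of the splicing factor gene HNRNPA1, was at 2.15, 1.77, 0.885 and 0.123 (log2 fold change -1.400 ± 0.44, adjusted p = 0.0297). In the last 2, shDUSP23 2 lay well below shDUSP23 1. Without shDUSP23 2 their log2 fold changes were -0.51 and -0.82, with adjusted p-values of 0.0552 and 0.062, and without shDUSP23 1 that of SNRPGP10 was -1.97. Leaving out shMock 2 put 5 of the 6 above the threshold. The adjusted p was then 0.0528 for HMGB1P5, 0.0695 for NPM1P27, 0.102 for SNRPEP4, 0.194 for SNRPGP10 and 0.149 for HNRNPA1P7. Without shMock 1 it was 0.108 for SNRPGP10 and 0.201 for HNRNPA1P7. After correction for GC content and length the log2 fold change of SNRPGP10 was -0.57 (adjusted p = 0.282) and the adjusted p of HNRNPA1P7 0.058. SNRPGP10 was also at 0.122 by robust eBayes, 0.0615 with equal sums, 0.0535 without the filter and 0.0795 by limma-voom. SNRPEP4 was at 0.0594 and HNRNPA1P7 at 0.0517 by limma-voom. With equal sums 5 of the 12 fell and 1 rose, after correction for GC content and length 4 fell and 0 rose, and by limma-voom on recovered fragments 3 fell and 0 rose.

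The translation list had 3 lower and 0 higher of 5 tested, beside 22.2% lower and 23.1% higher of all genes, with the same counts at an unadjusted p under 0.05, and 1 lower and 0 higher by limma-voom. AP000769.1 would belong to this list by its newer symbol FAUP4, and it rose (log2 fold change 1.25, limma adjusted p = 0.00031). EEF1A1P5, a copy of the elongation factor gene EEF1A1, was at 22.8, 25.1, 14.3 and 12.1 (log2 fold change -0.84 ± 0.15, adjusted p = 0.00272). EEF1B2P3 was at 2.84, 2.396, 1.15 and 0.698 (log2 fold change -1.15 ± 0.31, adjusted p = 0.0175). Its parent EEF1B2 had a log2 fold change of -1.06, and the difference was -0.086 ± 0.43 (adjusted p = 0.934). EEF1A1P6 was at 1.902, 2.78, 0.455 and 1.01 (log2 fold change -1.22 ± 0.36, adjusted p = 0.0239). The latter pair lost the call without shMock 1 (0.16 and 0.0874), without shMock 2 (0.109 and 0.233) and by limma-voom (0.0805 and 0.0554). EEF1B2P3 was at 0.0523 after correction for GC content and length. Of the chaperone and prolyl isomerase copies 1 of 3 fell, beside 22.2% lower of all genes. It was PPIAP22, a copy of the cyclophilin A gene, at 18.3, 24.7, 7.74 and 8.51 (log2 fold change -1.34 ± 0.18, adjusted p = 0.000726). CCT6P1, a copy of a chaperonin subunit gene, was at 8.11, 8.85, 12.5 and 8.58 (log2 fold change 0.28 ± 0.21, adjusted p = 0.303), and was called higher with equal sums (0.0422) or without shDUSP23 2 (0.0471).

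Iron and redox copies had 2 lower and 0 higher of 5, beside 22.2% lower and 23.1% higher of all genes, and 1 lower with equal sums or by limma-voom. AKR1B10P1, a copy of an aldo-keto reductase gene, was at 3.49, 8.03, 1.22 and 0.302 (log2 fold change -2.31 ± 0.46, adjusted p = 0.00421), with an adjusted p of 0.0782 without shMock 2. AKR1B10, the parent of AKR1B10P1, had a log2 fold change of -2.31, and the difference was -0.0058 ± 0.52 (adjusted p = 0.996). FTLP3, a copy of the ferritin light chain gene, was at 1.69, 2.63, 0.702 and 0.987 (log2 fold change -0.97 ± 0.33, adjusted p = 0.0432). This call was lost without shMock 1 (0.103), shMock 2 (0.345) or shDUSP23 1 (0.0678), with equal sums (0.0969), with a pseudocount of 0.1 FPKM or the GC content and length correction (0.0528 in each) and by limma-voom (0.195). FTL, the parent of FTLP3, had a log2 fold change of -1.29, and the difference was 0.32 ± 0.44 (adjusted p = 0.698). FABP5P7, a copy of a fatty acid binding protein gene, had the largest fall of all tested members, at 6.38, 4.402, 0 and 0.643 (log2 fold change -2.94 ± 0.43, adjusted p = 0.000945). It has no 50-base word of its own and is identical to FABP5 over its length. FABP5 had a log2 fold change of -1.79, and the difference was -1.15 ± 0.58 (adjusted p = 0.26). Behind the values of FABP5P7 lay 55, 45, 0 and 11 fragments.

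**Figure D2:**
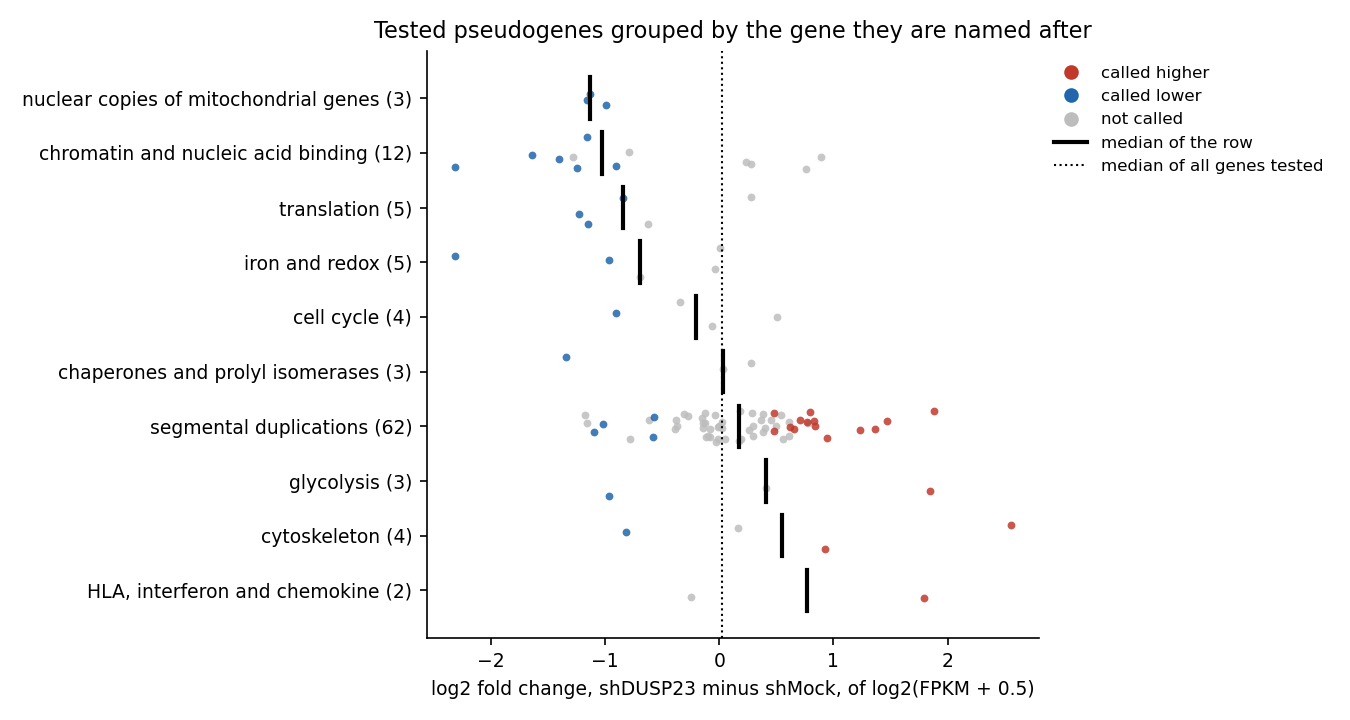
Points are tested pseudogenes placed by log2 fold change (x axis, shDUSP23 minus shMock of log2(FPKM + 0.5)) in rows of the parent lists, with the number tested in brackets; colours give the limma call, bars the row's median and the dotted line that of all genes tested. The chromatin and translation rows hold 6 and 3 points called lower and none called higher, and the row of segmental duplications 14 called higher and 4 lower of 62, where 23.1% of all genes were higher and 22.2% lower.

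Some members are closest to a gene with an RPL or RPS symbol although their names do not show it, and those called were all lower. The set was taken by these symbols alone. It leaves out AP000769.1, FAUP4 in newer tables, which rose and whose closest coding gene was CHEK1. Clone names were carried by 146 members. In 27 members the closest coding gene was a ribosomal protein gene, and 14 of the 27 are ribosomal protein copies by a newer symbol. Of the 20 tested, 10 fell and 0 rose (median log2 fold change -0.96), where 22.2% of all genes fell. At an unadjusted p under 0.05, 12 were lower and 0 higher, and by limma-voom 7 of 19 fell and 0 rose. With equal sums 9 fell, without shMock 1 6 fell and without shMock 2 4 fell, and 0 rose in each. AC004057.1, identical to RPS26 over its length, was at 65.5, 54.4, 29.6 and 21.8 (log2 fold change -1.22 ± 0.17, adjusted p = 0.000825). AC116533.1, now RPL36AP37, was at 53.6, 34.9, 19.7 and 5.901 (log2 fold change -1.94 ± 0.45, adjusted p = 0.00848). BX679664.3, now RPL17P7, was at 3.81, 4.497, 1.54 and 0.299 (log2 fold change -1.86 ± 0.43, adjusted p = 0.0082). The shDUSP23 libraries differed from each other in the last 2, and without shDUSP23 2 the log2 fold changes were -1.11 and -1.19. Without shMock 1 their adjusted p-values were 0.0861 and 0.0617, and without shMock 2 that of BX679664.3 was 0.0947. By robust eBayes that of AC116533.1 was 0.136. RPL36A and RPL17, the coding genes closest to AC116533.1 and BX679664.3, had log2 fold changes of -1.53 and -1.32. Leaving all 27 aside, 77 members rose and 53 fell of 397. The processed class without them had 9 higher and 20 lower of 94 (median -0.20).

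The members with the largest rises came from several classes. SEC22B4P, a partial duplicate of a vesicle trafficking gene, was at 0.289, 0.757, 5.61 and 6.06 (log2 fold change 2.67 ± 0.31, adjusted p = 0.00036), from 9, 28, 222 and 375 fragments. WFDC21P, a unitary pseudogene whose transcript is known as lnc-DC in dendritic cells, was at 0.414, 0, 4.25 and 3.17 (log2 fold change 2.63 ± 0.39, adjusted p = 0.00106), from 5, 0, 65 and 76 fragments. CFL1P1 was at 1.35, 0.729, 10.7 and 6.53 (log2 fold change 2.56 ± 0.32, adjusted p = 0.000458). It is named after the cofilin gene CFL1, but no alignment of its annotated transcript to CFL1 was found, and 98.04% of its 50-base words were its own. AL450124.1, closest to the zinc finger gene ZNF850, was at 1.198, 0.561, 6.82 and 7.11 (log2 fold change 2.48 ± 0.29, adjusted p = 0.000378). In these 4 the lowest shDUSP23 library lay above the highest shMock library, and each was called with any 1 library left out. By limma-voom on recovered fragments the log2 fold change of WFDC21P was 4.83.

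Other rises were less even. AC138866.1, closest to GUSB, was at 1.29, 0, 4.31 and 3.16 (log2 fold change 2.15 ± 0.54, adjusted p = 0.0125). Without shMock 2 its log2 fold change was 1.23 and its adjusted p 0.0611, and by limma-voom the p was 0.065. CDC26P1, identical to the gene of an anaphase-promoting complex subunit, was at 0, 1.38, 1.87 and 8.902 (log2 fold change 2.28 ± 0.73, adjusted p = 0.0328). Its call was lost without shMock 1 (log2 fold change 1.33, adjusted p = 0.233), without shDUSP23 2 (1.29 and 0.111), by robust eBayes (0.15), limma-voom (0.129) or quantile normalization (0.0509) and without the filter (0.0511). HLA-L, a class I HLA pseudogene and 1 of 2 tested members of the HLA, interferon and chemokine list, was at 1.198, 2.18, 6.73 and 7.03 (log2 fold change 1.79 ± 0.27, adjusted p = 0.00124). AL390719.1 (chr1:1059708-1066459, + strand) had the smallest adjusted p of all members, at 12.3, 13.1, 41.5 and 50.7 (log2 fold change 1.81 ± 0.15, adjusted p = 8.22e-05).

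**Figure D3:**
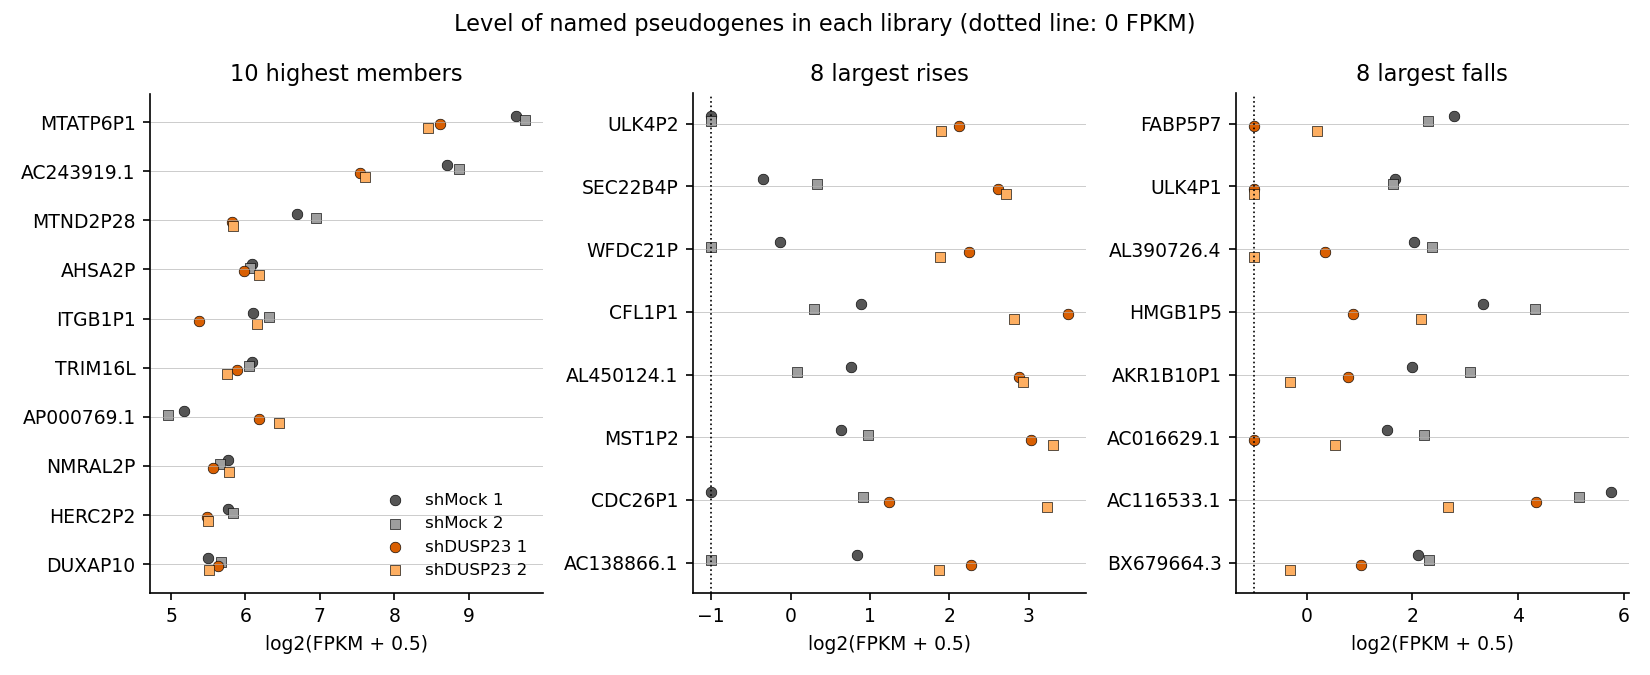
Each symbol is 1 library, on log2(FPKM + 0.5), for the 10 most abundant members and for the 8 largest rises and the 8 largest falls among called members that reached 2 FPKM in the mean of a group without overlap; grey is shMock, orange shDUSP23, and the dotted line marks 0 FPKM. MTATP6P1, AC243919.1 and MTND2P28 are separated by group at high level, whereas several of the largest rises and falls have a library at 0.

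Among further falls, AL390726.4, now CYP4F33P and inside FAM95C, was at 3.56, 4.64, 0.765 and 0 (log2 fold change -2.52 ± 0.45, adjusted p = 0.00252), with an adjusted p of 0.0544 without shMock 2. AC016629.1 was at 2.36, 4.18, 0 and 0.952 (log2 fold change -2.103 ± 0.51, adjusted p = 0.0108). Its adjusted p was 0.143 without shMock 2 and 0.0883 by limma-voom, and its log2 fold change was -1.33 without shDUSP23 1. Neither has a 50-base word of its own. C19orf48, a unitary pseudogene listed as C19orf48P in newer tables, was at 51.4, 61.8, 24.8 and 29.1 (log2 fold change -1.06 ± 0.15, adjusted p = 0.000763), and 97.1% of its words were its own. ANKRD20A5P was at 14.99, 13.7, 7.105 and 6.61 (log2 fold change -1.01 ± 0.16, adjusted p = 0.00159). Of the 4 tested members in the cell cycle list 1 fell, beside 22.2% lower of all genes. This was DDX12P, a copy of a DNA helicase gene, at 2.07, 2.299, 0.817 and 1.05 (log2 fold change -0.91 ± 0.30, adjusted p = 0.0381). It lost the call without shMock 1 (0.171), shMock 2 (0.243) or shDUSP23 1 (0.0563) and with equal sums (0.106). CENPBD1 of the same list was at 5.79, 5.56, 6.51 and 10.5 (log2 fold change 0.51 ± 0.24, adjusted p = 0.113), and was called higher with equal sums (0.0172) or without shDUSP23 1 (0.00773).

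Where the name shows a parent with a tested value, pseudogene and parent could be compared within each library. There were 191 such pairs with 129 parents, of which 28 rose and 44 fell. Both partners were called in the same direction in 35 pairs and in opposite directions in 10. In 19 pairs the pseudogene alone was called, in 53 the parent alone and in 74 neither. Across pairs, the log2 fold changes of pseudogene and parent had a Pearson r of 0.53 for 72 processed copies and 0.10 for 87 transcribed unprocessed ones. For 18 unprocessed pairs r was 0.79, or 0.60 in 14 without the mitochondrial and MST1 copies, and for 13 transcribed processed pairs it was 0.23. By identity to the parent, r was -0.12 in 25 pairs under 90%, 0.35 in 80 pairs of 90 to 98% and 0.54 in 73 pairs of at least 98%. These values describe genes that share libraries and in part parents and reads. Identity was taken over the best alignment, which could cover a small part of the pseudogene. No processed pair and no pair of at least 98% identity was called in opposite directions.

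**Figure D4:**
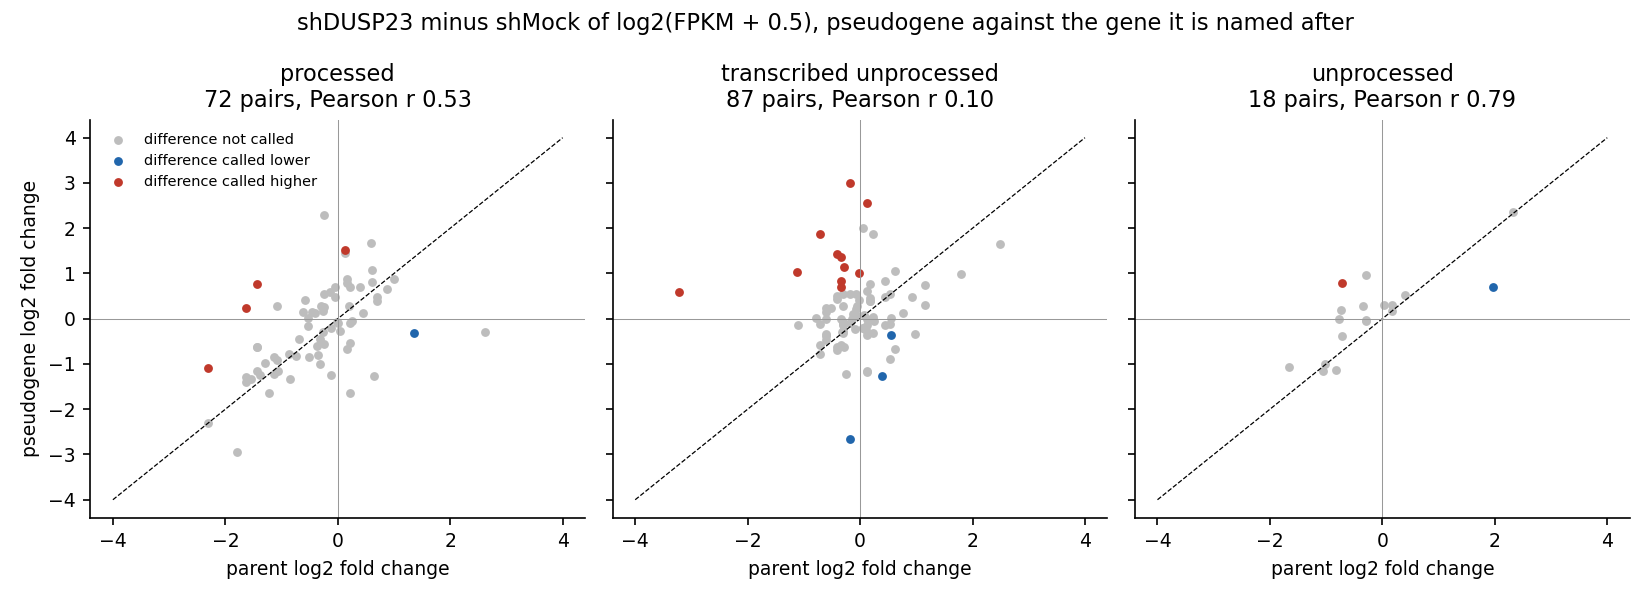
Each point is a pseudogene and the gene it is named after, with the parent's log2 fold change on the x axis and the pseudogene's on the y axis; colours give the limma call of the difference, and the dashed line marks equal change. The values of pseudogene and parent had an r of 0.53 over processed copies and 0.10 over transcribed unprocessed ones, and points of both classes lie away from the dashed line.

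The difference between pseudogene and parent changed in 24 of the 191 pairs, 19 with the pseudogene higher relative to its parent and 5 with it lower. That is 12.6%, beside 13.9% of the 231 pairs that include ribosomal protein copies (11.7% higher and 2.16% lower). The count depended on single libraries. Without shMock 2 no pair was called by limma, with 33 of 191 at an unadjusted p under 0.05, and without shMock 1 8 were higher and 2 lower. Without shDUSP23 1 there were 36 higher and 15 lower, and without shDUSP23 2 24 and 12. With the replicate number as a block 8 were higher and 1 lower.

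In 9 of the 24 called pairs pseudogene and parent were themselves called in opposite directions. They were AADACP1, KPNA2P3, TPI1P2, CIDECP1, 3 copies of GTF2I and 2 of PMS2. AADACP1 was at 35.5, 34.4, 13.99 and 14.6 (log2 fold change -1.26 ± 0.13, adjusted p = 0.000213), while AADAC was at 43.6, 46.3, 63.7 and 54.1 and rose (log2 fold change 0.38, adjusted p = 0.0406). The difference was -1.64 ± 0.22 (adjusted p = 0.00527), and 99.95% of the 50-base words of AADACP1, the copy with 20 differing bases above, were its own. KPNA2P3, a duplicate of the importin gene KPNA2, was at 4.99, 3.597, 11.5 and 7.37 (log2 fold change 1.04 ± 0.26, adjusted p = 0.0116). KPNA2 was at 115, 103, 55.02 and 45.4, and the difference was 2.15 ± 0.29 (adjusted p = 0.00527). TPI1P2, a copy of the triosephosphate isomerase gene of glycolysis, was at 0.699, 0.589, 3.104 and 4.202 (log2 fold change 1.85 ± 0.30, adjusted p = 0.00162), and 98.3% of its words were its own. TPI1 was at 363, 428, 223 and 260.2, and the difference was 2.56 ± 0.41 (adjusted p = 0.00996). After correction for GC content and length the log2 fold change of AADACP1 was -0.83. Without shMock 2 the adjusted p of the difference was 0.0527 for each of AADACP1, KPNA2P3 and TPI1P2. The rise of KPNA2P3 alone was then at 0.111, and at 0.0662 by limma-voom.

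The cytoskeleton list had 2 higher and 1 lower of 4 tested members, and the glycolysis list 1 higher and 1 lower of 3. Of all genes tested, 23.1% were higher and 22.2% lower. KRT8P12, a keratin copy, was at 4.46, 5.78, 10.02 and 10.2 (log2 fold change 0.93 ± 0.19, adjusted p = 0.00528), with a p of 0.0541 without shMock 1. Its difference from KRT8 was 1.19 ± 0.27 (adjusted p = 0.0282), but 0.25 by quantile normalization (adjusted p = 0.618), and at 0.176 without shMock 1 and 0.0932 without shMock 2. CFL1P1 differed from CFL1 by 2.43 ± 0.43 (adjusted p = 0.0146), at 0.0808 without shMock 2. ANXA2P2, a copy of the annexin A2 gene, was at 4.52, 5.63, 2.43 and 2.88 (log2 fold change -0.82 ± 0.23, adjusted p = 0.0218), and its difference from ANXA2 was -0.076 ± 0.30 (adjusted p = 0.911). Its fall was at 0.0729 without shMock 1, 0.2 without shMock 2, 0.101 with equal sums and 0.0771 by limma-voom. LDHAP4, a copy of the lactate dehydrogenase A gene, was at 5.79, 7.304, 3.12 and 3.04 (log2 fold change -0.97 ± 0.22, adjusted p = 0.00739), with 0.108 without shMock 2. Its difference from LDHA was 0.027 ± 0.29 (adjusted p = 0.966).

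In other called pairs the parent had the larger change. CIDECP1 had the largest called difference, 3.800 ± 0.92 (adjusted p = 0.0321), and CIDEC, a lipid droplet protein gene, was at 10.3, 15.6, 3.52 and 0. CIDECP1 itself was at 17.00, 12.97, 20.1 and 25.2 (log2 fold change 0.58 ± 0.18, adjusted p = 0.0301). Without shDUSP23 2, where CIDEC is listed at 0, the difference was 2.13, and without shMock 2 its adjusted p was 0.174. With a pseudocount of 0.1 FPKM it was 0.115, by robust eBayes 0.302, without the filter 0.0527 and once corrected for GC content and length 0.0508. The rise of CIDECP1 alone was at 0.221 without shMock 2, 0.108 without shDUSP23 2 and 0.0923 by limma-voom. NPM1P7, inside CLEC2D and with no word of its own, was at 1.39, 0.892, 3.47 and 1.403 and was not called, whereas NPM1 was at 682, 766, 272 and 258. The difference was 2.204 ± 0.50 (adjusted p = 0.0282), at 0.0536 without shMock 1, 0.139 without shMock 2, 0.0644 with a pseudocount of 0.1 FPKM and 0.0763 by quantile normalization. HNRNPA1P16 was at 2.26, 1.53, 2.17 and 2.43 and was not called, beside HNRNPA1 at 479, 493, 149 and 162. The difference was 1.88 ± 0.38 (adjusted p = 0.0186), at 0.0932 without shMock 2 and 0.0566 by quantile normalization. GCSHP5, a copy of a glycine cleavage protein gene, was at 14.7, 14.9, 6.81 and 6.67 (log2 fold change -1.08 ± 0.16, adjusted p = 0.00104), beside GCSH at 49.7, 58.2, 10.95 and 9.89. Both fell, and the difference was 1.24 ± 0.25 (adjusted p = 0.0186), at 0.0797 without shMock 1 and 0.139 without shMock 2.

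The 5 pairs with the pseudogene lower relative to its parent were AADACP1, ULK4P1 and 3 in which the parent rose. IFNL3, an interferon lambda gene, was at 70.7, 61.4, 250.3 and 268. IFNL3P1 was at 3.75, 3.56, 5.397 and 7.32 (log2 fold change 0.71 ± 0.22, adjusted p = 0.0312), and the difference was -1.26 ± 0.29 (adjusted p = 0.0282). DUSP8, a phosphatase gene, was at 3.12, 3.42, 8.79 and 9.49. DUSP8P5, at 1.76, 1.79, 1.37 and 1.27, was not called, and the difference was -1.68 ± 0.42 (adjusted p = 0.0347). NPEPPS, an aminopeptidase gene, was at 42.4, 38.9, 59.1 and 60.02. NPEPPSP1, at 16.8, 14.2, 12.1 and 11.96, was not called, and the difference was -0.89 ± 0.23 (adjusted p = 0.0374). Without shMock 1 the adjusted p-values of these 3 differences were 0.0869, 0.232 and 0.236, and without shMock 2 they were 0.142, 0.189 and 0.174. That of IFNL3P1 was 0.0521 without shDUSP23 1. With a pseudocount of 0.1 FPKM they were 0.0579, 0.0644 and 0.0579, and once corrected for GC content and length that of NPEPPSP1 was 0.0709. The rise of IFNL3P1 alone was at 0.119 without shMock 1, 0.161 without shMock 2, 0.119 without shDUSP23 2, 0.182 by limma-voom and 0.054 by quantile normalization.

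Among duplicated families, some copies rose with their parent, and in others copies of 1 parent were called in opposite directions. MST1P2 was at 1.05, 1.47, 7.66 and 9.41 (log2 fold change 2.37 ± 0.25, adjusted p = 0.000214). Its relative MST1L was at 0.387, 0.6397, 4.24 and 3.44 (log2 fold change 2.104 ± 0.31, adjusted p = 0.000996), and MST1 at 3.53, 3.69, 22.6 and 17.9. All 3 were higher in both shDUSP23 libraries, and the difference between MST1P2 and MST1 was 0.042 ± 0.35 (adjusted p = 0.958). PLEKHM1P1 (chr17:64779259-64837154, - strand), which lies beside KPNA2P3, was at 7.54, 7.296, 22.1 and 27.01 (log2 fold change 1.65 ± 0.16, adjusted p = 0.000166). PLEKHM1, a lysosomal adaptor gene, was at 7.78, 8.47, 44.8 and 51.2, and the difference was -0.84 ± 0.23 (adjusted p = 0.0522). That difference was called with a pseudocount of 1 FPKM (0.0411), a mean of at least 5 FPKM (0.0221) and by robust eBayes (0.0339). The list of segmental duplications was made from symbol prefixes, FAM and ZNF among them, and duplication was not checked member by member. In it, 62 of 77 members were tested, 14 rose and 4 fell (median 0.18). That is 22.6% higher and 6.45% lower, where 23.1% of all genes rose and 22.2% fell. With equal sums the calls were 27 and 1, without shMock 1 7 and 1, without shMock 2 5 and 1, and without shDUSP23 1 15 and 9. GOLGA2P10, a duplicate of a golgin gene, was at 24.2, 24.5, 44.5 and 42.8 (log2 fold change 0.83 ± 0.12, adjusted p = 0.00105). WASH3P, a subtelomeric copy of a WASH complex gene, was at 11.8, 13.1, 22.5 and 26.3 (log2 fold change 0.94 ± 0.15, adjusted p = 0.00162).

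The ULK4 copies on chromosome 15 were called in opposite directions. ULK4P1 (chr15:32406597-32434637, - strand) was at 2.69, 2.58, 0 and 0, and ULK4P2 (chr15:30572969-30600647, + strand) at 0, 0, 3.85 and 3.204. ULK4P1 had 50 and 57 fragments in shMock and is listed at 0 in shDUSP23. ULK4P2 is listed at 0 in shMock and had 83 and 108 fragments in shDUSP23. On the log2(FPKM + 0.5) scale, where a value listed at 0 makes the size depend on the pseudocount, ULK4P1 fell by 2.65 and ULK4P2 rose by 3.01 (adjusted p = 0.000684 and 0.000313). ULK4P3 was at 2.73, 2.82, 2.44 and 2.72 and was not called. The 3 together summed to 5.41 and 5.401 FPKM in shMock and 6.29 and 5.92 in shDUSP23. Neither ULK4P1 nor ULK4P2 has a 50-base word of its own, so fragments of that length cannot be told apart from those of other genes. Their best alignment to ULK4 covered 12.3% of ULK4P1 and 13.5% of ULK4P2, and the closest coding gene of both was CHRFAM7A. Relative to ULK4 the difference was -2.46 ± 0.65 (adjusted p = 0.0439) for ULK4P1, at 0.904 without shMock 1, 0.657 without shMock 2, 0.0514 with equal sums, 0.0552 by quantile normalization, 0.175 with a pseudocount of 0.1 FPKM and 0.0998 when GC content and length were corrected for. For ULK4P2 it was 3.19 ± 0.58 (adjusted p = 0.0155), at 0.0633 without shMock 2 and 0.0662 with a pseudocount of 0.1 FPKM.

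SDHAP2, a copy of the succinate dehydrogenase gene SDHA with no word of its own, was at 0, 0.396, 2.61 and 1.798 (log2 fold change 1.998 ± 0.42, adjusted p = 0.00521), with 0.0524 without shMock 1. The 3 SDHA copies summed to 16.03 and 13.2 FPKM in shMock and 15.1 and 13.8 in shDUSP23. Of 6 tested GTF2I copies, duplicates of a transcription factor gene, 3 rose and 1 fell, beside 23.1% higher and 22.2% lower of all genes. GTF2IP13, for which no alignment to GTF2I was found, was at 1.76, 1.57, 4.77 and 5.37 (log2 fold change 1.36 ± 0.24, adjusted p = 0.00235). GTF2IP1, the copy that fell, was at 27.8, 29.8, 22.6 and 16.2 (log2 fold change -0.58 ± 0.17, adjusted p = 0.0261). Its call was lost with equal sums (0.282), after correction for GC content and length (0.0568) and without shMock 1 (0.0954), shMock 2 (0.156) or shDUSP23 2 (0.111, log2 fold change -0.34). The 6 copies summed to 70.8 and 70.5 FPKM in shMock and 72.3 and 66.6 in shDUSP23, and without shMock 1 their calls were 1 higher and 0 lower. GTF2I itself was at 66.2, 64.8, 50.9 and 51.9 and fell (log2 fold change -0.35, adjusted p = 0.036). The difference from it was 1.71 ± 0.31 (adjusted p = 0.0158) for GTF2IP13, at 0.0768 without shMock 2. For the other copies that rose, GTF2IP20 and GTF2IP12, it was 1.05 ± 0.25 (adjusted p = 0.0307) and 1.19 ± 0.32 (adjusted p = 0.0476), and both lost the call without shMock 1 (0.186 and 0.226) or shMock 2 (0.139 and 0.0932). The rise of GTF2IP20 alone was at 0.0714 without shMock 1 and 0.0575 without shMock 2, and that of GTF2IP12 at 0.171 without shMock 1.

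Of 6 tested PMS2 copies, duplicates of a mismatch repair gene, 2 rose and 1 fell, beside 23.1% higher and 22.2% lower of all genes. The calls were 2 and 0 at equal sums, 1 and 2 by quantile normalization, 1 and 0 without shMock 1, 1 and 3 without shDUSP23 1, and 0 and 0 by limma-voom or without shMock 2. PMS2P10, now PMS2P13, was at 0.384, 0, 2.603 and 1.43 (log2 fold change 1.88 ± 0.44, adjusted p = 0.00876), with 0.09 without shMock 2 and 0.0554 by limma-voom. Its difference from PMS2 was 2.595 ± 0.66 (adjusted p = 0.0374), at 0.242 without shMock 1, 0.174 without shMock 2, 0.154 with a pseudocount of 0.1 FPKM and 0.0528 when GC content and length were corrected for. PMS2P6, the other copy that rose, was at 2.71, 2.45, 5.74 and 4.102 (log2 fold change 0.798 ± 0.25, adjusted p = 0.029), and its difference was 1.51 ± 0.33 (adjusted p = 0.0257). Its rise was at 0.108 without shMock 1, 0.165 without shMock 2, 0.0994 without shDUSP23 1, 0.162 by limma-voom and 0.0507 by quantile normalization. That difference was at 0.0583 without shMock 1, 0.11 without shMock 2 and 0.0503 without shDUSP23 1. PMS2 was at 8.21, 7.72, 4.43 and 4.89 and fell (log2 fold change -0.71, adjusted p = 0.0153). No call was made among 7 HERC2 copies, whose log2 fold changes ran from -0.31 to 0.54, or among 6 PKD1 copies, from 0.18 to 0.78. At an unadjusted p under 0.05, 1 HERC2 copy was lower and 1 PKD1 copy higher. With equal sums 1 HERC2 and 4 PKD1 copies were called higher, and by limma-voom 0 and 2. A pseudocount of 1 FPKM, a mean of at least 5 FPKM or robust eBayes gave 1 PKD1 call, and leaving out shDUSP23 1 gave 2, all higher. After correction for GC content and length HERC2P2 was called lower (log2 fold change -0.44, adjusted p = 0.0131).

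**Figure D5:**
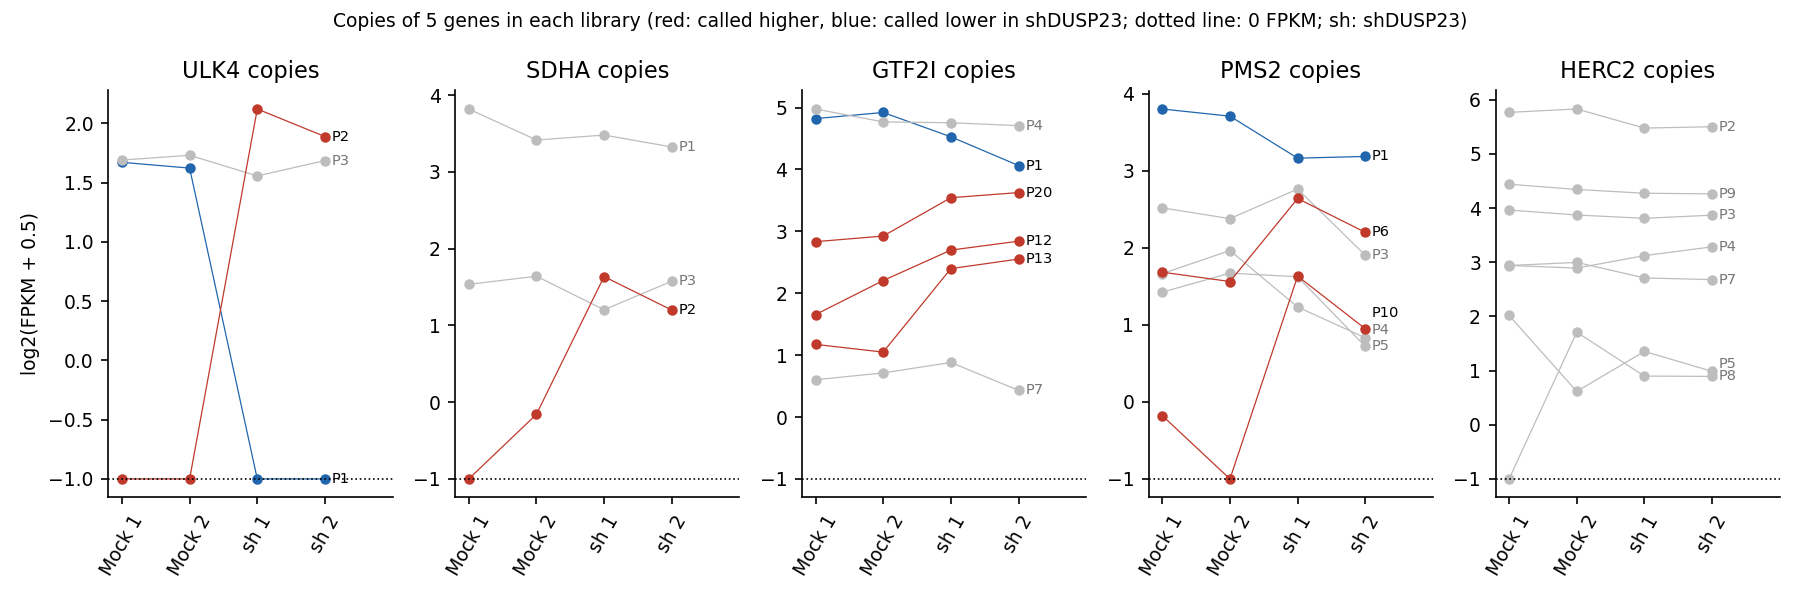
The level of each tested copy in each library, as log2(FPKM + 0.5) on the y axis, for 5 duplicated genes; a thin line joins the values of 1 copy, red copies were called higher and blue ones lower in shDUSP23, and the dotted line marks 0 FPKM. ULK4P1 and ULK4P2 change places at the dotted line while ULK4P3 stays level, and no HERC2 copy is coloured.

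Position and shared letters were set beside the calls, where 23.1% of all genes tested rose and 22.2% fell. Inside or overlapping a coding gene on the same strand lay 104 members, of which 59 were tested, 6 rose (10.2%) and 12 fell (20.3%). Over 48 of these with a tested partner the log2 fold changes of member and partner had a Pearson r of 0.29. A coding gene lay on the opposite strand of 94 members. Strandedness was not stated, so reads of such partners cannot be told apart from those of the pseudogene. Members with under 25% of their 50-base words to themselves had 19 higher and 23 lower of 127 tested (median -0.02). Those with at least 75% had 26 higher and 11 lower of 124 (21.0% and 8.87%, median 0.17). The part of shared reads in any of these results was not tested.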

How the data were processed

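RNA sequencing was done on A549 clusters, 2 shMock and 2 shDUSP23 libraries. The authors deposited FPKM, 1 value per transcript and library, and no counts were used here. The submitters' processing notes name STAR 2.7.1a, DESeq2 1.32.0 and GRCh38. The sources used here do not give the quantifier, its treatment of reads that fit several places or the strandedness.

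Transcripts were summed per gene. Genes averaging 1 FPKM or more were fitted together in limma 3.58.1 (lmFit, eBayes with a trend, no covariates) after log2(FPKM + 0.5). Tests were two-sided, Benjamini-Hochberg adjusted over 13691 genes and called under 0.05. A fold change on this scale understates the change of low genes. For pairs, log2(pseudogene + 0.5) minus log2(parent + 0.5) was fitted over 231 pairs, ribosomal protein copies included. The parent is the symbol without its final P and number. For single-transcript genes whose ends matched GENCODE 29, values up to 50 fragments were whole within 0.1 in at least 99.9% per library, which gave the library totals. A value listed at 0 may be a failed estimate. Alignments were made with blastn (word size 16). The procedures were tested on simulated data.

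Named are DUSP23, the 10 most abundant members, the 8 largest rises and falls among called members that reached 2 FPKM in the mean of a group without overlap, the 6 largest rises and falls of pairs called (5 falls were), and the 2 tested members of each parent list with the smallest p. MTCO1P12 and the other copies named beside these were picked with their values known, as were the added alternatives. Parent lists took members by the start of their symbol, and the origin or function of each member was not checked. The members and lists were chosen with earlier results of these data known. Alternatives were pseudocounts, filters, equal sums, quantile normalization, robust eBayes, a replicate block and each library left out. Added were limma-voom on recovered fragments, a GC content and length correction, and the members limited by their closest gene or by their own 50-base words. Newer symbols come from a gene name table that held 628 of the 629 gene IDs.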

Additional observations from a re-analysis of the deposited data

How the results depend on the processing

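Of 61 named members called, 31 kept direction and call in every alternative run; 30 lost the call when 1 library was left out and 20 in another setting, and none reversed. Of 21 named pairs called, each lost the call when some library was left out, all 21 without shMock 2, and 15 in another setting. Over the runs that leave out 1 library, members higher ranged from 38 to 93 and lower from 21 to 85, pairs higher from 0 to 36 and lower from 0 to 15, transcribed unprocessed members higher from 21 to 51 and lower from 7 to 30, and processed members higher from 4 to 16 and lower from 7 to 35. With a mean of at least 5 FPKM, where fewer genes are tested, 39 members were higher and 37 lower, 8 pairs higher, 28 transcribed unprocessed members higher, and 4 processed members higher and 11 lower. With equal sums 121 members were higher, 70 transcribed unprocessed members higher and 7 lower, and 16 processed members higher. Equal sums moved the median log2 fold change to 0.34 for all members, 0.38 for transcribed unprocessed, 9.04e-05 for processed and 0.52 for unprocessed ones, and the log2 ratio of summed FPKM to 0.50, -0.031, -0.38 and -0.49 for the transcribed unprocessed, processed, transcribed processed and unprocessed classes (0.17, -0.37, -0.71 and -0.82 as deposited). Pairs lower numbered 1 with a pseudocount of 0.1 FPKM, 8 with 1 FPKM and 3 after GC content and length correction. By limma-voom on recovered fragments 5 processed members were higher and 15 lower. Among members with at least 25% of 50-base words of their own, fewer by construction, 39 were lower, as were 3 pairs, 11 transcribed unprocessed and 18 processed members. The causes were not tested. The correlation of same-numbered libraries' deviations was 0.053 and the numbers are not a stated pairing. With the replicate number as a block 83 members were higher and 71 lower, 8 pairs higher and 1 lower, and no named member lost its call, whereas 13 named pairs did. Count models planned for recovered reads (edgeR, DESeq2) were not run, since GENCODE 29 transcript ends matched 40783 of 56389 transcripts. With 2 libraries a group and a median of 95 to 211 fragments per tested member, small changes of low members were not detectable at this depth.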

Other observations

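Further duplicated copies differed from their parents. HSD17B7P2, a copy of a hydroxysteroid dehydrogenase gene, rose from 13.0 and 11.6 FPKM in shMock to 25.8 and 24.7 FPKM in shDUSP23 while its difference from HSD17B7 was 1.03 (limma adjusted p = 0.0282; 0.165 without shMock 1 and 0.139 without shMock 2). RRN3P3, a copy of a gene for a factor of RNA polymerase I, rose from 2.01 and 2.79 FPKM to 8.12 and 6.43 FPKM, with a difference from RRN3 of 1.83 (adjusted p = 0.013; 0.0527 without shMock 2). These 2 were chosen after their values were seen.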
